A study of Mus musculus with 45 samples.

Results

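The genes described here encode the calcium pumps and sodium-calcium exchangers of the mouse, 9 of the 54532 genes in the count table. They were taken by symbol and comprise 4 plasma membrane calcium ATPases (PMCA: Atp2b1, Atp2b2, Atp2b3 and Atp2b4), 2 calcium ATPases of the endoplasmic reticulum (SERCA: Atp2a2 and Atp2a3) and 3 sodium-calcium exchangers (NCX: Slc8a1, Slc8a2 and Slc8a3). All 9 were found and tested in every comparison, but Atp2a3 had only 1 to 16 reads per library.

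Poly-A RNA was sequenced from primary hippocampal cultures of newborn C57BL/6N mice, grown with rat serum, given AraC against dividing cells and treated on day 10 or 11 in vitro by the labels (day 11 by the study's methods). Control cultures received no treatment, and the Bic 0.5h, Bic 1h and Bic 2h cultures received bicuculline (Bic, 50 µM), a blocker of GABA type A receptors that induces action potential firing, for 0.5, 1 or 2 h. In the short protocol (SP), tetrodotoxin (TTX, 1 µM), a blocker of action potentials, was added alone or with the receptor agonist NMDA (30 µM) for the last 0.5 h of 1 h in Bic. In the long protocol (LP), TTX, TTX/NMDA or the inhibitor of glutamate uptake TBOA (50 µM) was added for the last 1 h of 2 h in Bic. Every group except the control thus shared Bic. Each of the 9 conditions had 5 libraries, 1 from each of the culture preparations 1, 3, 6, 7 and 8. The passive effect compares TTX with Bic of the same duration, the active effect TTX/NMDA with TTX, the total effect TTX/NMDA with Bic, and glutamate spillover TBOA with Bic 2h.

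PMCA pumps use ATP to drive calcium out of the cell across the plasma membrane and are stimulated by calmodulin. SERCA pumps use ATP to refill the endoplasmic reticulum from the cytosol. NCX proteins exchange calcium for sodium across the plasma membrane with high capacity and modest affinity, and in neurons these 3 families restore resting calcium after activity or after opening of NMDA receptors.

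Libraries held 11316580 to 81129276 counts on genes (median 26239614), a 7.17-fold range, and no pair of libraries was identical. Levels are given in CPM, a library's counts scaled to a common total, after TMM normalisation. A gene was called changed at an adjusted p under 0.05 in the quasi-likelihood test of edgeR, adjusted by Benjamini-Hochberg over all genes tested, and fitted log2 fold changes stand with their SE. Of the marker lists, the 5 general neuronal genes summed to a median of 4720 CPM in the control, the 5 astrocyte genes to 504 CPM, the 6 genes of the oligodendrocyte lineage to 60.6 CPM, the 4 microglial genes to 3.66 CPM and the 3 endothelial genes to 4.24 CPM. The 3 fibroblast genes summed to a median of 84.6 CPM in the control. These cultures therefore held neuronal mRNA together with mRNA of glial and fibroblast markers, and no listed marker was at 0. Npas4, an activity-regulated transcription factor, had 47.2 ± 15.2 CPM in the control and 2224 ± 304 CPM in Bic 2h (SD, n = 5 each).

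On the genome build GRCm38, the PMCA genes lie at chr10:98914406-99026143 (Atp2b1), chr6:113743831-114042613 (Atp2b2), chrX:73503086-73571005 (Atp2b3) and chr1:133699457-133801041 (Atp2b4). The SERCA genes lie at chr5:122453513-122502225 (Atp2a2) and chr11:72961169-72993044 (Atp2a3). The exchanger genes lie at chr17:81373105-81738377 (Slc8a1), chr7:16129826-16161063 (Slc8a2) and chr12:81197915-81333180 (Slc8a3). All 9 are protein-coding, and reads were summed over the exons of each gene. Atp2b4 has 1 exonic overlap on its own strand, with the microRNA gene Mir6903, where shared reads were not counted.

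The exchangers held the extremes of the NMDA response, so the 250 bases before the RefSeq start of Slc8a1, which had the largest fitted fall, and of Slc8a3, which had the smallest among the 8 well-counted members, are shown 5′ to 3′ on the gene's strand (RefSeq, GRCm38.p6, minus strand, chr17:81738388-81738637 and chr12:81333181-81333430). Capitals mark the half-site TGACG of the cAMP response element (CRE), the DNA element bound by CREB.
Slc8a1: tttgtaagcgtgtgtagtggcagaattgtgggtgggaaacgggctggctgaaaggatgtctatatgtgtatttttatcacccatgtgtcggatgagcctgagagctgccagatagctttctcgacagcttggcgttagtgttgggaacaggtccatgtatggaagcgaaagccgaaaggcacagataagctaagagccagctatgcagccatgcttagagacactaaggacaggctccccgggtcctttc
Slc8a3: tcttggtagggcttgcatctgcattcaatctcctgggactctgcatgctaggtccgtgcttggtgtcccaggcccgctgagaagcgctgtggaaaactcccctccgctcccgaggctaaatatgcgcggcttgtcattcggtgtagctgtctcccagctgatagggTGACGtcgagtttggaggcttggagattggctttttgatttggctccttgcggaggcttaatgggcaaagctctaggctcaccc
RefSeq windows of this kind were found for 7 of the 9 members, with 10 windows in all because Atp2b1 and Atp2b2 have several starts. For 9 of the 10, the bases after the start lay in an annotated transcript of the gene (GENCODE M21), the exception being 1 window of Atp2b2. Atp2b3 and Atp2a2 had none in the table. The full CRE TGACGTCA, which contains the half-site, was in 0 of the 10 windows and in 1.55% of all 32851 windows searched. The half-site TGACG, or CGTCA on the other strand, was in 1 of 10, that of Slc8a3, beginning 84 bases before the start, and in 17.8% of all windows. The Egr site GCGTGGGCG, searched on both strands, was in 0 of 10 and in 0.536% of all windows. These letter matches describe the sequence and were not tested as binding sites.

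In the control, the families were compared as CPM per kilobase of exon, since longer transcripts collect more reads. The 4 PMCA genes summed to 121 ± 14.7 CPM per kb, the SERCA genes to 145.5 ± 20.8 CPM per kb and the NCX genes to 77.1 ± 13.1 CPM per kb (SD, n = 5 each). The order of PMCA and SERCA depended on the length used. Per kb of the longest coding sequence, the PMCA genes summed to 401 ± 38.7 and the SERCA genes to 282.5 ± 40.4 CPM. Among the PMCA genes, Atp2b1, the broadly expressed housekeeping pump, held 43.3% ± 6.46 of the control sum. Atp2b2, a fast pump prominent in neurons and sensory hair cells, held 24.8% ± 2.25, Atp2b3, a pump enriched in brain, 19.7% ± 2.82, and Atp2b4, found in many tissues, 12.2% ± 2.34. Atp2a2, the SERCA gene used by most cell types, held 99.98% of the SERCA sum. Atp2a3, known from blood cells and cerebellar Purkinje cells, was near absent. Its control values were 0.435, 0.136, 0.137, 0.09998 and 0.0521 CPM in preparations 1, 3, 6, 7 and 8, and no comparison called it. Slc8a2, an exchanger found mainly in brain, held 84.6% ± 0.969 of the NCX sum. Slc8a3, of brain and skeletal muscle, held 9.46% ± 1.20, and Slc8a1, the exchanger of heart and brain, 5.99% ± 1.33. These shares and part of their order depend on the length used. With the longest coding length, Atp2b1 held 54.2% of the PMCA sum in the control, and Atp2b3 (7.89%) stood below Atp2b4 (12.5%). By the same length Slc8a1 (17.7%) stood above Slc8a3 (8.34%). With the mean transcript length, Atp2b1 held 71.8% and Atp2b3 5.20%. Atp2b1, Atp2a2 and Slc8a2 led their families by all 3 lengths.

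**Figure D1:**
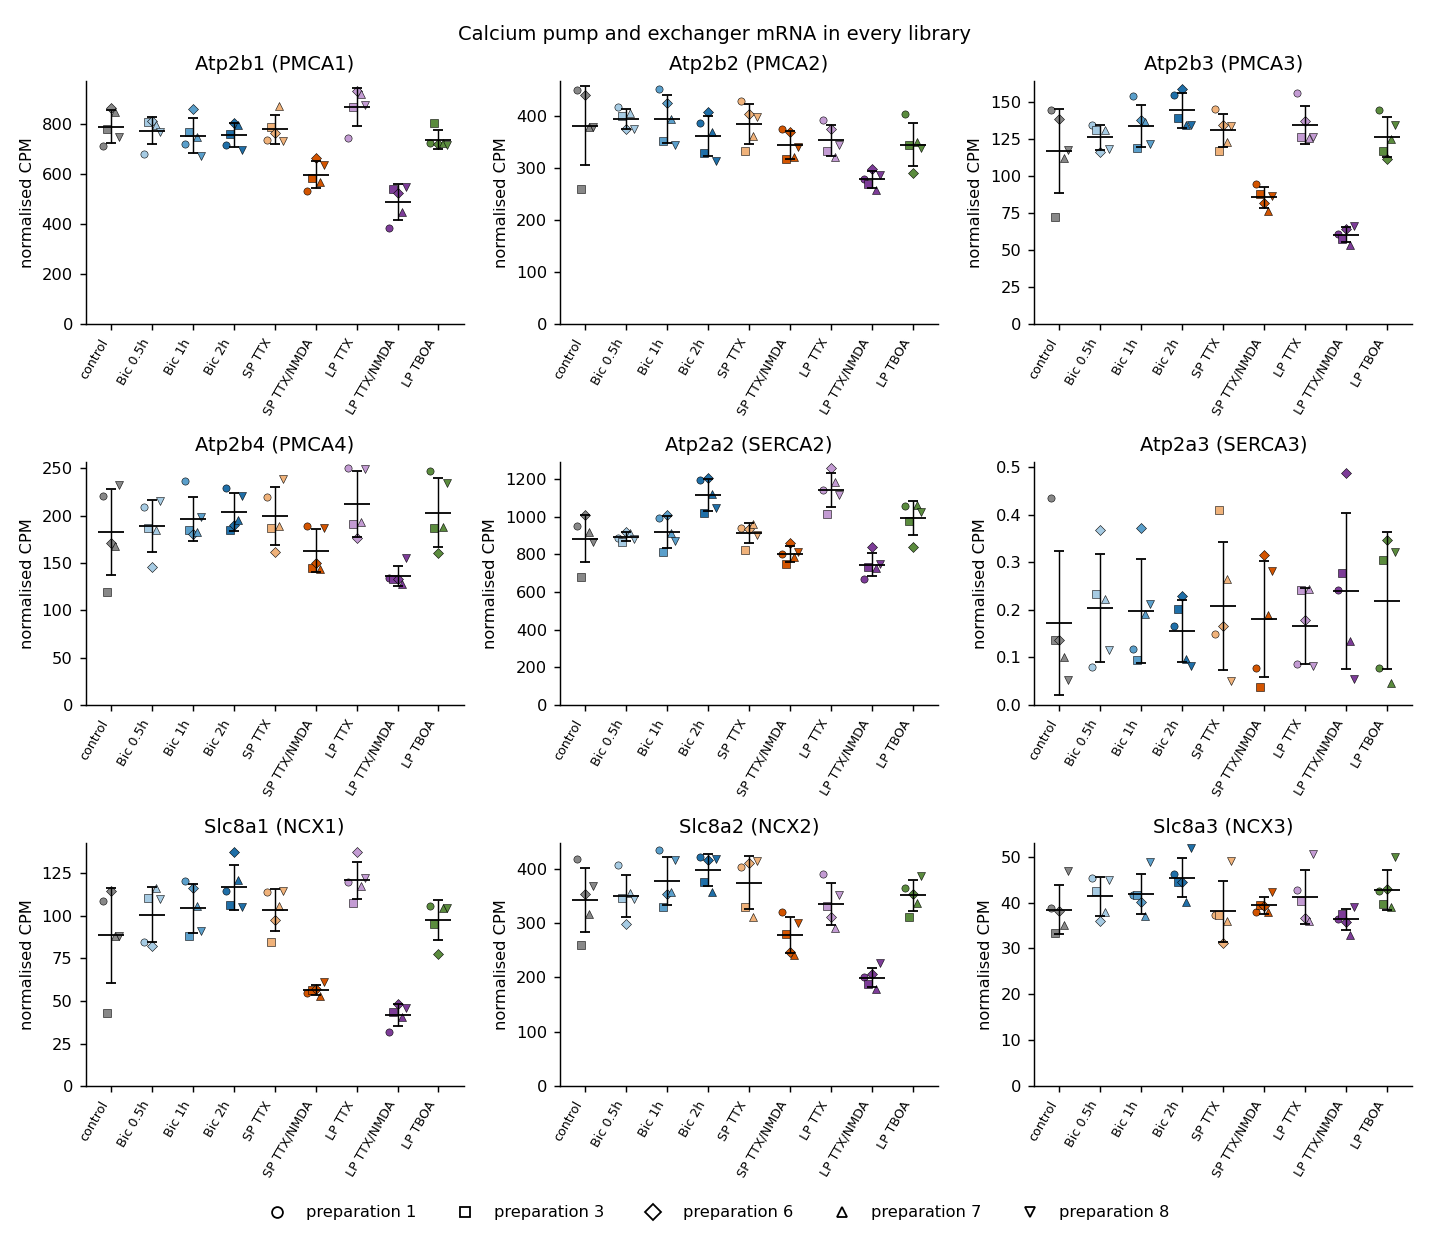
Normalised CPM (y axis, linear, from 0) of each member in the 9 conditions (x axis), with 1 symbol per culture preparation, and the mean and SD of 5 preparations as bars. For Slc8a1, the 5 LP TTX/NMDA libraries sit between 31.7 and 48.4 CPM and the 5 LP TTX libraries between 107 and 137 CPM.

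Bic alone led to few calls among these genes. None of the 9 members was called after Bic 0.5h or Bic 1h against the control by edgeR, where 0.289% and 1.16% of all genes tested were called in either direction. No member had an unadjusted p under 0.05 in these comparisons, and neither DESeq2 nor the fit with preparation as a block called any (0 members in each). After Bic 2h, Atp2a2 was the only member called, with 0 lower, against 4.24% of all genes called higher and 4.78% called lower.

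Atp2a2 had 949, 679, 1010, 920 and 865 CPM in the control and 1198, 1019, 1205, 1120 and 1045 CPM in Bic 2h, in preparations 1, 3, 6, 7 and 8. All Bic 2h values were above all control values, and preparation 3 was lowest in both groups. The log2 fold change was 0.33 ± 0.09 (SE; adjusted p = 0.0149), with a rise in 5 of 5 preparations. Slc8a1 had a fitted change of 0.39 ± 0.14 (adjusted p = 0.0798), Atp2b3 of 0.29 ± 0.11 (adjusted p = 0.114), Slc8a3 of 0.23 ± 0.09 (adjusted p = 0.112) and Slc8a2 of 0.20 ± 0.09 (adjusted p = 0.227), and each was above the control in 5 of 5 preparations. With preparation as a block, these 4 genes were also called, at adjusted p = 0.0202 for Slc8a1, 0.0245 for Atp2b3, 0.00673 for Slc8a3 and 0.026 for Slc8a2, giving 5 members higher. The block was fitted over better-counted genes (filterByExpr of edgeR), of which it called 2195 of 15269 higher and 2284 lower. The control library of preparation 3 had the lowest value of its group for 7 of the 9 members. Without that preparation the change of Slc8a1 after Bic 2h was 0.25 (adjusted p = 0.0416).

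TTX alone, which ends the firing, also led to few calls. The SP passive effect called 0 of 9 by edgeR (0.268% of all genes), with 0 at an unadjusted p under 0.05 and 0 by DESeq2 or with the block. The LP passive effect called 1 of 9, Slc8a2, with lower levels, against 1.62% of all genes called lower. Slc8a2 had 421, 375, 415, 357 and 418 CPM in Bic 2h and 391, 331, 311, 292 and 352 CPM in LP TTX. It was lower in 5 of 5 preparations, although the groups overlapped. Its log2 fold change was −0.25 ± 0.07 (adjusted p = 0.0284), and the call was lost without preparation 6 (adjusted p = 0.137) or 7 (0.0681) and in a single fit over all 45 libraries (0.186). With the block, Atp2b1 was called higher after LP TTX (log2 fold change 0.18, adjusted p = 0.00193), and Atp2b3 (−0.12, 0.0289) and Slc8a3 (−0.16, 0.0108) were called lower. Over the better-counted genes it was fitted on, the block called 2450 of 15570 higher and 2528 lower.

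Stimulation with NMDA was followed by lower levels of most members. In the LP active effect, 7 of the 9 members fell and 0 rose, namely all 4 PMCA genes, Atp2a2, Slc8a1 and Slc8a2. Among all genes tested, 11.8% were called lower and 11.6% higher. Since the members other than Atp2a3 are well expressed, the background was also counted, after the data were seen, over the 9506 genes with a mean of at least 10 CPM, of which 34.2% were called lower. The median log2 fold change was −0.64 over the 9 members, 0.11 over all genes tested and −0.08 over those 9506 genes. In these bulk cultures, fewer cells of a type and less RNA per cell cannot be told apart.

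Other markers moved in the same comparison. From LP TTX to LP TTX/NMDA, the summed astrocyte markers went from 678 CPM (429 to 905) to 1045 CPM (772 to 1621; medians and ranges), and 5 of 5 rose. The 3 excitatory neuron markers went from 1230 CPM (1169 to 1380) to 712 CPM (619 to 863), and 3 of 3 fell. The 5 general neuronal markers went from 4828 CPM (4672 to 4979) to 3975 CPM (3754 to 4041), with 2 of 5 called lower, and the 3 inhibitory neuron markers from 1734 CPM (1414 to 2067) to 2014 CPM (1565 to 2302), with 1 of 3 called higher. The 6 genes of the oligodendrocyte lineage went from 67.0 to 107 CPM, with 4 called higher, and the 3 fibroblast genes from 98.5 to 184 CPM, with 3 called higher (medians). The part of these shifts in the changes of the pumps and exchangers was not tested.

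Slc8a1 showed the largest fitted fall. In preparations 1, 3, 6, 7 and 8 it had 120, 107, 137, 118 and 122 CPM in LP TTX and 31.7, 43.6, 48.4, 40.3 and 45.7 CPM in LP TTX/NMDA. The groups did not overlap, and preparation 1 was lowest after NMDA. The log2 fold change was −1.54 ± 0.09 (adjusted p = 9.2e-14), or 2.91-fold lower. In SP TTX it had 114, 84.8, 97.6, 106 and 114 CPM, and in SP TTX/NMDA 54.8, 56.6, 57.0, 52.6 and 61.0 CPM. These groups did not overlap either, and the log2 fold change was −0.88 ± 0.08 (adjusted p = 4.8e-10). Over the 9 conditions, Slc8a1 was highest in LP TTX (121 ± 10.8 CPM) and lowest in LP TTX/NMDA (41.9 ± 6.45 CPM). SP TTX/NMDA (56.4 ± 3.09 CPM) stood next, and neighbours among the 7 conditions without NMDA differed by less than their SD.

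Atp2b3 followed with the second largest fall. It had 156, 126, 137, 126 and 126 CPM in LP TTX and 60.5, 57.3, 63.8, 53.4 and 66.1 CPM in LP TTX/NMDA. There was no overlap, and the log2 fold change was −1.16 ± 0.07 (adjusted p = 7.7e-13), or 2.24-fold lower. In the SP it went from 145, 117, 134, 123 and 134 CPM with TTX to 94.6, 87.8, 81.8, 76.0 and 86.6 CPM with TTX/NMDA, again without overlap (−0.62 ± 0.07, adjusted p = 2.5e-07). Its order of conditions ran from Bic 2h (144 ± 11.7 CPM) down to LP TTX/NMDA (60.2 ± 5.08 CPM), and neighbours among the 7 conditions without NMDA differed by less than their SD.

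Atp2b1 had 744, 869, 934, 920 and 878 CPM in LP TTX and 382, 541, 524, 449 and 549 CPM in LP TTX/NMDA. Its groups did not overlap, and the log2 fold change was −0.84 ± 0.08 (adjusted p = 7.3e-09), or 1.79-fold lower. In the SP it went from 737, 787, 762, 873 and 732 CPM to 530, 583, 664, 568 and 637 CPM, without overlap (−0.39 ± 0.07, adjusted p = 0.000526). Its highest level was in LP TTX (869 ± 75.1 CPM) and its lowest in LP TTX/NMDA (489 ± 71.7 CPM), and neighbours among the 6 conditions from the control (ranked after LP TTX) to LP TBOA differed by less than their SD.

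Atp2b4 fell from 250, 191, 177, 193 and 249 CPM in LP TTX to 134, 133, 133, 128 and 155 CPM in LP TTX/NMDA. Preparations 1 and 8 were highest with TTX, the groups did not overlap, and the log2 fold change was −0.64 ± 0.09 (adjusted p = 9.9e-07). The SP change was −0.30 ± 0.09 with overlapping groups (adjusted p = 0.0535), lower in 5 of 5 preparations, and was called with the block (adjusted p = 0.00674) or without preparation 6 (0.0088) or 8 (0.00996).

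Atp2b2 had the smallest fall of the PMCA genes. It went from 394, 332, 374, 321 and 345 CPM in LP TTX to 280, 269, 299, 258 and 287 CPM in LP TTX/NMDA, without overlap. The log2 fold change was −0.35 ± 0.07 (adjusted p = 0.000212), or 1.28-fold lower. In the SP its change was −0.17 ± 0.07 (adjusted p = 0.277, and 0.0429 with the block), with overlapping groups.

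Atp2a2 had 1140, 1017, 1261, 1184 and 1117 CPM in LP TTX and 672, 733, 840, 727 and 750 CPM in LP TTX/NMDA. The groups did not overlap, and the log2 fold change was −0.63 ± 0.07 (adjusted p = 7.8e-08), or 1.55-fold lower. Its SP change was −0.20 ± 0.07 (adjusted p = 0.116), lower in 5 of 5 preparations with overlapping groups, and was called with the block (0.0252) and by DESeq2 (0.0172). The 2 highest levels of Atp2a2 were in LP TTX (1144 ± 89.8 CPM) and Bic 2h (1117 ± 85.3 CPM), which differed by less than their SD.

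Slc8a2, the most abundant exchanger per kb, had 391, 331, 311, 292 and 352 CPM in LP TTX and 200, 187, 206, 179 and 226 CPM in LP TTX/NMDA. The groups did not overlap, and the log2 fold change was −0.76 ± 0.08 (adjusted p = 9.3e-09), or 1.69-fold lower. In the SP it went from 403, 330, 410, 312 and 414 CPM to 320, 280, 247, 242 and 300 CPM, where the groups overlapped and the log2 fold change was −0.44 ± 0.09 (adjusted p = 0.000934).

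Slc8a3 was the 1 well-counted member not called in the LP active effect. It had 42.7, 40.4, 36.7, 36.04 and 50.5 CPM in LP TTX and 36.4, 37.5, 35.8, 33.02 and 39.1 CPM in LP TTX/NMDA. These groups overlapped, with preparation 8 highest in both. The log2 fold change was −0.19 ± 0.08 (adjusted p = 0.109), lower in 5 of 5 preparations, and was called with the block (−0.16, adjusted p = 0.0163). In the SP the change was 0.04 ± 0.09 (adjusted p = 0.881). Its mean level was 36.4 to 45.4 CPM over the 9 conditions, and neighbours in that order all differed by less than their SD. Atp2a3 had a fitted LP active change of 0.26 ± 0.44 (adjusted p = 0.7102).

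**Figure D2:**
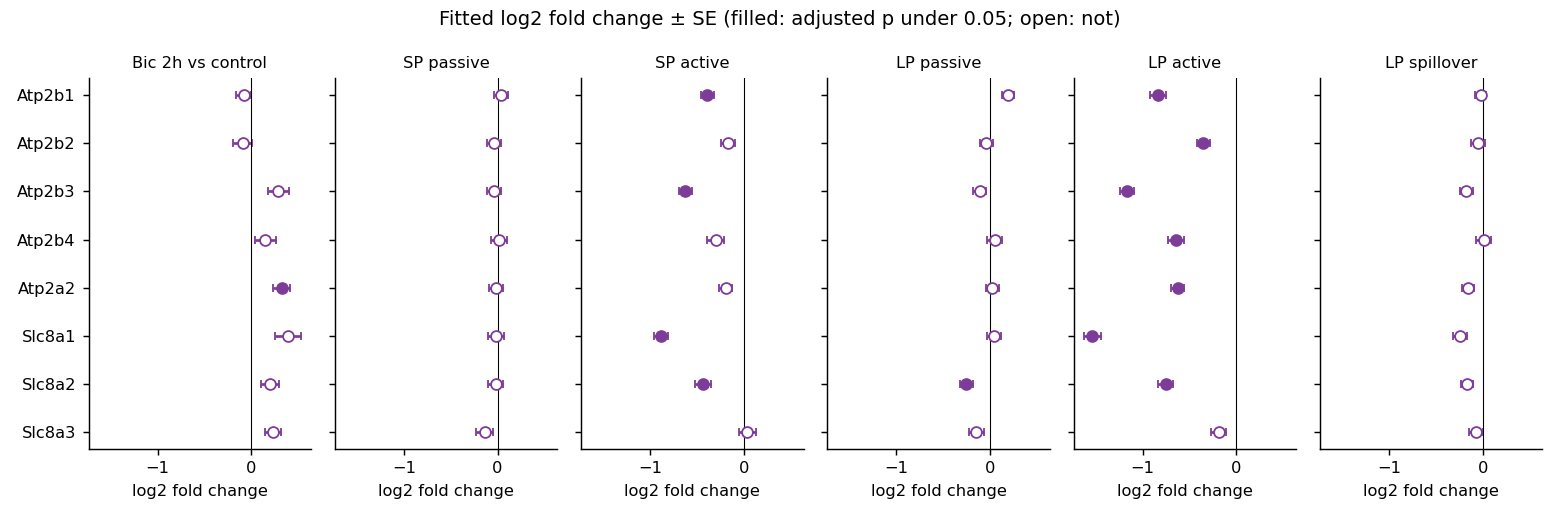
Fitted log2 fold change with SE (x axis) of the 8 well-counted members (y axis) in 6 comparisons, with filled points for an adjusted p under 0.05 and 10 libraries in each comparison. The 7 filled points of the LP active effect lie between −1.54 and −0.35, and the SP passive and LP spillover panels hold no filled point.

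In the SP active effect, 4 of 9 members were called lower and 0 higher (Atp2b1, Atp2b3, Slc8a1 and Slc8a2), against 3.32% of all genes called lower and 10.2% of the genes with at least 10 CPM. The block raised this to 7 members, and of all genes it was fitted on it called 1617 of 15705 lower and 931 higher. Among the SP groups, the excitatory neuron markers summed to a median of 1335 CPM with TTX and 985 CPM with TTX/NMDA, with 2 of 3 called lower, and the astrocyte markers to 743 and 777 CPM, with 0 of 5 called. The inhibitory neuron markers summed to 1342 and 1707 CPM, with 2 of 3 called higher. Those of neurons in general summed to 4684 and 4337 CPM, with 1 of 5 called lower. The part of these markers in the SP changes was not tested.

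The difference between the protocols was tested as the LP active effect minus the SP active effect. It was called for 4 of 9 members, all with a larger fall in the LP, against 1.85% of all genes called lower. Over better-counted genes (filterByExpr of edgeR), 926 of 16663 were called lower. The difference in log2 fold change was −0.64 ± 0.13 for Slc8a1 (adjusted p = 0.00134), −0.53 ± 0.11 for Atp2b3 (0.00212), −0.42 ± 0.10 for Atp2a2 (0.00896) and −0.43 ± 0.12 for Atp2b1 (0.0314). For each of them the LP fall was larger in 5 of 5 preparations. The reference also moved for Atp2a2, with means of 914 CPM in SP TTX and 1144 CPM in LP TTX. Its means with NMDA were 803 CPM (SP) and 744 CPM (LP), with overlapping groups. Without preparation 6, Atp2b1 was not called (−0.39, adjusted p = 0.112). The difference was −0.33 ± 0.14 for Atp2b4 (adjusted p = 0.264), −0.30 ± 0.13 for Slc8a2 (0.245) and −0.17 ± 0.10 for Atp2b2 (0.484), and these 3 were called with the block (0.00707, 0.00926 and 0.0290). Of all genes it was fitted on, the block called 2524 of 16663 lower and 1641 higher.

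**Figure D3:**
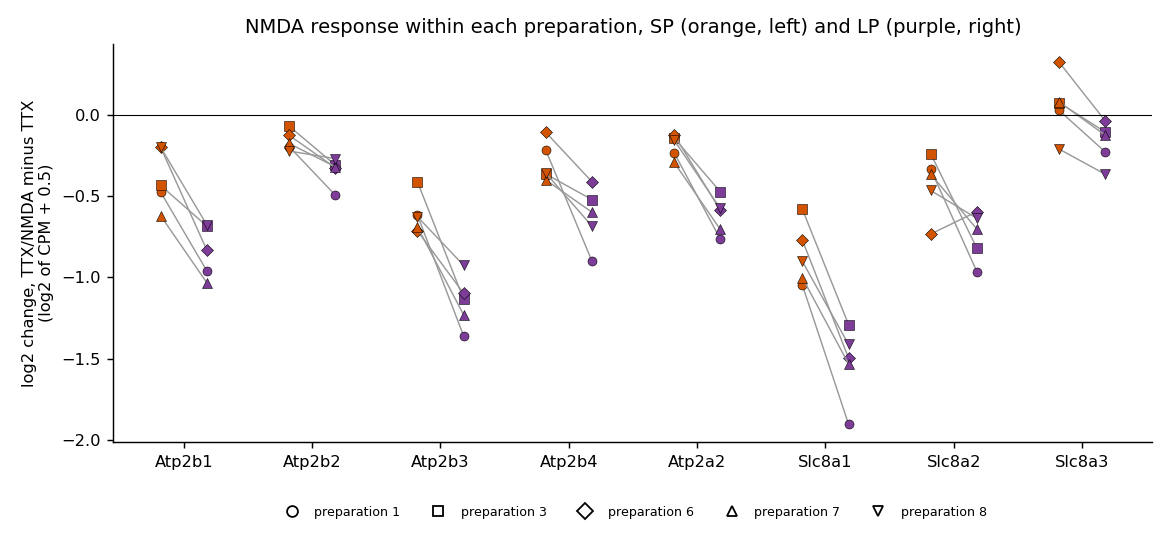
Change from TTX to TTX/NMDA within each culture preparation, as log2 of CPM plus 0.5 (y axis), for 8 members (x axis), with SP in orange and LP in purple and a line joining the same preparation. For Slc8a1 the SP points run from −1.05 to −0.58 and the LP points from −1.90 to −1.29.

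The total effect sets TTX/NMDA against Bic of the same duration. Over better-counted genes (filterByExpr of edgeR), the LP total effect called 3486 of 15947 lower. In the LP, 8 of 9 members were called lower, against 11.1% of all genes. Slc8a3 was among them, with 46.1, 44.6, 44.5, 40.1 and 51.9 CPM in Bic 2h and 36.4, 37.5, 35.8, 33.02 and 39.1 CPM in LP TTX/NMDA. Its log2 fold change was −0.33 ± 0.07 (adjusted p = 0.000909). For Slc8a2 the log2 fold change was −1.01 ± 0.07 (adjusted p = 6.4e-13), for Atp2b3 −1.27 ± 0.07 (5.2e-15) and for Slc8a1 −1.50 ± 0.09 (1.2e-14). In the SP, 4 of 9 members were called lower, against 3.41% of all genes, and the count was 7 with the block or without preparation 8. Over better-counted genes, 1162 of 15435 were called lower in the SP without the block and 2413 of 15435 with it. Without preparation 8, 1482 of 30593 genes were called lower.

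Several members were also below the untreated level in LP TTX/NMDA, a comparison in which Bic, TTX and NMDA all differ. It called 6 of 9 lower and 0 higher, against 8.55% of all genes called lower. Over better-counted genes (filterByExpr), 2834 of 15615 were called lower. The log2 fold change was −1.08 ± 0.15 for Slc8a1 (adjusted p = 4.4e-07), −0.96 ± 0.11 for Atp2b3 (4.4e-08), −0.79 ± 0.10 for Slc8a2 (1.1e-07) and −0.70 ± 0.10 for Atp2b1 (7.4e-07). It was −0.46 ± 0.10 for Atp2b2 (0.000888) and −0.42 ± 0.11 for Atp2b4 (0.00476). The groups overlapped for Slc8a1, Atp2b2 and Atp2b4, which were each lower in 4 of 5 preparations. For Slc8a1 the control of preparation 3 had 43.04 CPM, while the other 4 controls had 87.9 to 115 CPM. Atp2a2 had a log2 fold change of −0.25 ± 0.10 (adjusted p = 0.0578), which was called with the block (0.0307), without preparation 3 (0.00259) or 8 (0.0482), or in the fit over all 45 libraries (0.0113).

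Glutamate spillover gave no call. With TBOA against Bic 2h, 0 of 9 members were called by edgeR, and 0 by DESeq2 or with the block, against 0.602% of all genes called in either direction, and 4 members had an unadjusted p under 0.05. Slc8a1 had 115, 106, 137, 121 and 105 CPM in Bic 2h and 106, 94.9, 77.8, 105 and 105 CPM with TBOA. It was lower in 5 of 5 preparations, with overlapping groups and preparation 6 lowest with TBOA, and its log2 fold change was −0.24 ± 0.08 (adjusted p = 0.212). Without preparation 8 it was called (−0.31, adjusted p = 0.00147). Atp2b3 had a log2 fold change of −0.18 ± 0.07 (adjusted p = 0.445), Slc8a2 of −0.17 ± 0.07 (0.444) and Atp2a2 of −0.16 ± 0.07 (0.536).

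Summed over each family, the mean level went from 130 ± 3.64 CPM per kb of exon in LP TTX to 77.8 ± 6.46 in LP TTX/NMDA for the PMCA genes. The SERCA sum went from 188 ± 14.8 to 122 ± 10.1 CPM per kb, and the NCX sum from 77.9 ± 8.00 to 47.0 ± 3.90 CPM per kb (SD, n = 5 each). In none of the families did the ranges overlap. The members fell unequally, and the composition of the families differed between these conditions. Atp2b3 held 21.4% ± 1.75 of the PMCA sum in LP TTX (19.9% to 24.4%) and 16.1% ± 1.04 in LP TTX/NMDA (14.9% to 17.7%), while Atp2b2 went from 21.5% ± 1.37 to 28.4% ± 1.90. Slc8a1 went from 8.33% ± 1.18 to 4.75% ± 0.691 of the NCX sum and Slc8a3 from 9.93% ± 0.919 to 14.5% ± 0.729, in each case without overlap. Slc8a2 held 81.7% ± 1.39 and 80.7% ± 1.03, and with the longest coding length 68.2% and 72.4%.

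**Figure D4:**
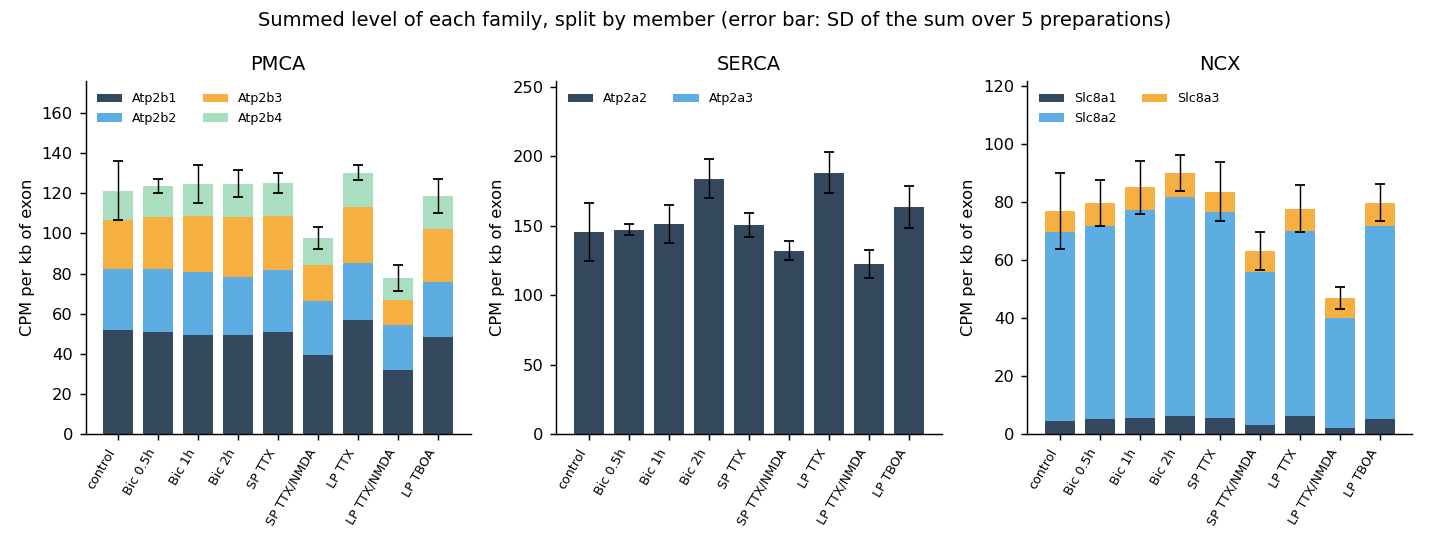
Summed level of each family in CPM per kb of exon (y axis, from 0) in the 9 conditions (x axis), stacked by member means, with the SD of the sum over 5 preparations. The 2 TTX/NMDA bars are the lowest in all 3 families, at 97.5 (SP) and 77.8 (LP) CPM per kb for PMCA.

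Other genes of calcium handling were described in lists drawn up by pathway. In the LP active effect, 4 of 9 other calcium pumps and exchangers fell, 1 rose and the median log2 fold change was −0.31. Beside these and the following lists stand the 11.8% of all genes called lower, the 11.6% called higher, and the 34.2% called lower among genes with at least 10 CPM, so nothing particular to a list is read from its count. Slc24a4 and Slc24a2, potassium-dependent sodium-calcium exchangers, changed by −1.33 ± 0.11 (adjusted p = 1.5e-10) and −0.97 ± 0.12 (3.5e-07). Atp2c1, the calcium and manganese pump of the Golgi apparatus, changed by −0.47 ± 0.07 (3.1e-06) and Slc24a3, another potassium-dependent exchanger, by −0.34 ± 0.06 (0.000107). In the SP, Slc24a2 (−0.49 ± 0.10, adjusted p = 0.00131) and Slc24a4 (−0.56 ± 0.11, 0.00128) also fell.

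Of the 11 subunits and regulators, 10 were tested in the LP active effect, with 2 lower, 2 higher and a median of 0.07. Calm3, which encodes calmodulin, changed by −0.24 ± 0.07 (adjusted p = 0.0137). Fxyd1, a small membrane protein that regulates the sodium pump, changed by 0.89 ± 0.22 (0.00314) and Sri, the calcium-binding protein sorcin, by 0.24 ± 0.08 (0.0247). Of 13 genes of endoplasmic reticulum release and refill, 7 fell, 2 rose and the median was −0.28. Itpr1, an inositol trisphosphate receptor, changed by −0.76 ± 0.08 (1.5e-08), Ryr2, a ryanodine receptor, by −0.69 ± 0.08 (1.6e-07) and Orai2, a subunit of store-operated channels, by −0.41 ± 0.06 (1.1e-05). Itpr2, the inositol trisphosphate receptor prominent in astrocytes, changed by 0.99 ± 0.15 (7.7e-06).

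Fxyd1 and Itpr2 rose together with the 5 astrocyte markers given above, and the part of those markers was not tested. None of the 3 cytosolic calcium buffers was called by edgeR, and their median was 0.04. Calb1 (calbindin) changed by 0.04 ± 0.08 (adjusted p = 0.749) and Calb2 (calretinin) by −0.04 ± 0.08 (0.768). Pvalb (parvalbumin), at a mean of 3.25 CPM, changed by 0.44 ± 0.24 (0.214).

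**Figure D5:**
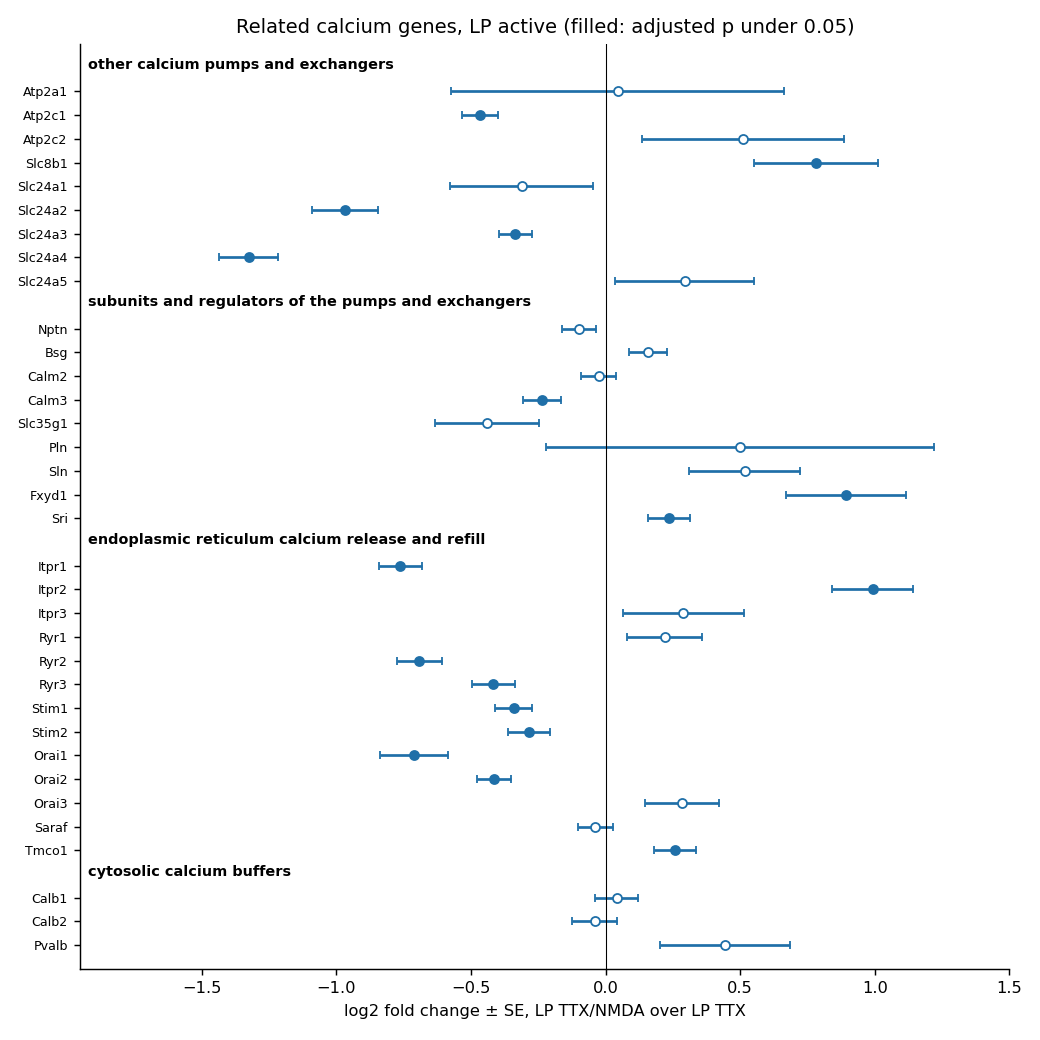
Fitted log2 fold change with SE (x axis) of the genes of 4 lists shown here (y axis, grouped by list) for LP TTX/NMDA over LP TTX, filled where the adjusted p was under 0.05. Slc24a4 lies lowest at −1.33 and Itpr2 highest at 0.99.

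The members with the widest spread of condition means on the log2 scale were Slc8a1, Atp2b3 and Slc8a2. Their likeness to other genes was described by Pearson's r of log2 CPM over the 45 libraries, with the mean of each preparation removed, among 9506 genes. These points share 9 conditions and 5 preparations and are not independent. Slc8a1 was most like Epha6, an ephrin receptor (r = 0.987), then Slc9a7, a sodium-proton exchanger (0.981), and Clstn2, a synaptic calsyntenin (0.978). Atp2b3 was most like Ppp1r12b, a myosin phosphatase subunit (0.987), Pcdhac2, a protocadherin (0.987), and Ptprn2, a protein of secretory vesicles (0.986). Slc8a2 was most like Syngr1, a synaptic vesicle protein (0.982), Apba2, a synaptic adaptor (0.980), and Adcy5, an adenylyl cyclase (0.977).

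Among the members themselves, r by the same measure was 0.972 between Atp2b3 and Slc8a1 and 0.953 between Atp2b3 and Slc8a2. Pairs with Slc8a3 ran from 0.338 (Atp2b2) to 0.628 (Atp2b4). Atp2b2 and Atp2a2 had an r of 0.500.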

How the data were processed

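The authors made strand-specific poly-A libraries, sequenced them single-end, aligned reads with STAR (2.5.4b) to GRCm38 and counted sense reads per gene with featureCounts (1.6.5), without multi-mapping reads or reads shared between genes. The deposited values are raw counts per gene, without normalization, for 45 libraries. The 9 members and the lists were chosen with earlier results of these data known. The rule for named genes took all members, up to 4 genes per list by adjusted p in the LP active effect, and the 3 most alike genes of 3 members; some listed genes are not reported here.

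Ensembl IDs were matched to symbols for 54409 of 54532 genes. Each pair of conditions was fitted on its own 10 libraries with edgeR (4.0.16, R 4.3.3), quasi-likelihood, TMM and no block, over genes with at least 1 read, at an adjusted p of 0.05. The difference between protocols was an interaction term over 20 libraries. Depth limits low genes such as Atp2a3. Libraries of the same preparation, as labelled, deviated together (mean r of 0.398 to 0.599, against −0.147 to −0.097 for other pairs), so a block by preparation was fitted as an alternative over genes passing filterByExpr, which 8 members did. Other alternatives were DESeq2 (1.42.0), its size factors, filterByExpr, a fit over 45 libraries and leaving out each preparation. On simulated counts for the LP active effect, the unblocked fit recovered 80% of 1.5-fold changes with 2.17% false calls, and the block 98% with 7.48%.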

Additional observations from a re-analysis of the deposited data

Results flagged for a closer look

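Of 81 groups of 5 libraries, 3 held a library far from the others by Dixon's criterion, which chance does in about 1 in 20 groups. Atp2b1 with TBOA had 804 CPM in preparation 3, while the other 4 preparations had 715 to 725 CPM. Atp2b4 in LP TTX/NMDA had 155 CPM in preparation 8, against 128 to 134 CPM in the others. Atp2a3 in the control had 0.435 CPM in preparation 1, against 0.0521 to 0.137 CPM, at counts of a few reads.

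The response to NMDA differed between the protocols for 4 members by the interaction term. The LP minus SP difference in log2 fold change was −0.43 for Atp2b1, −0.53 for Atp2b3, −0.42 for Atp2a2 and −0.64 for Slc8a1. The protocols differ in the time in NMDA (0.5 or 1 h) and in the Bic before it (0.5 or 1 h), which cannot be told apart.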

How the results depend on the processing

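No member changed direction past the threshold under any alternative tried. DESeq2 size factors and filterByExpr left all 12 counts of called members within 1.5 times. The replicate block (paired by preparation) called 5 members after Bic 2h, 7 each in SP active, SP total and LP minus SP active, and 4 in LP passive, and moved no other count by more than 1.5 times. It also called more genes of all those tested in these comparisons. With the block these were 2195 of 15269 higher after Bic 2h, 1617 of 15705 lower in SP active and 2413 of 15435 lower in SP total. In LP minus SP active they were 2524 of 16663 lower, and in LP passive 2528 of 15570 lower and 2450 higher. DESeq2's Wald test called 2 in LP passive, and the fit over all 45 libraries called 3 after Bic 2h and 0 in LP passive. Leaving out 1 preparation gave 1 to 3 called after Bic 2h, 4 to 5 in SP active, 4 to 7 in SP total, 0 to 2 in LP passive, 7 in LP active, 8 in LP total, 0 to 1 in LP spillover, 6 to 7 in LP TTX/NMDA against control, 3 to 4 in LP minus SP active, and 0 in Bic 0.5h, Bic 1h and SP passive. The causes were not tested. Family shares moved with the length measure, by more than 1 SD for 14 of 18 values with mean transcript length. Of simulated 1.5-fold differences between the protocols, the interaction test recovered 12% (0% false), DESeq2 30% (0%) and the block 72% (6.04%). The simulated settings were those given above, so these rates need not hold for the real libraries.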
